A study of Mus musculus with 8 samples.

Results

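The molecular chaperones of the heat shock and endoplasmic reticulum stress systems were followed in Lin-Sca1+Kit+ (LSK) cells, the sorted bone marrow fraction that contains haematopoietic stem cells and early multipotent progenitors. The members were 38 named genes of the 26146 in the deposited count table, found by exact match of the symbol, and all 38 were present. They divide into 13 cytosolic chaperones and co-chaperones, the heat shock transcription factor Hsf1, 3 mitochondrial chaperones and 21 genes of the endoplasmic reticulum, of which 15 are chaperones or folding enzymes, 4 act in the degradation of misfolded reticulum proteins and 2 are stress sensors. PolyA RNA of 4 Jmjd6 KO and 4 wild type mice had been sequenced in bulk, 1 library per mouse. Per the labels, a floxed Jmjd6 allele was deleted in blood lineages by a Cre of unnamed cell type; that sentence stands on both groups, and the labels do not say whether the wild type mice carried the floxed allele or the Cre, nor the strain, age or sex. Jmjd6 encodes a JmjC-domain oxygenase of the nucleus.

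Cells keep 2 main programmes against misfolded protein. In the cytosol, Hsp70 and Hsp90 machines fold client proteins with the help of J-domain proteins and nucleotide exchange factors, and HSF1 raises their genes on heat or proteotoxic stress by binding heat shock elements. In the endoplasmic reticulum, the sensors IRE1 (Ern1), ATF6 and PERK (Eif2ak3) detect unfolded secretory protein and raise reticulum chaperones, in part through the ER stress response element, a CCAAT box spaced from CCACG. Blood stem cells are known for low rates of protein synthesis and for sensitivity to unfolded protein.

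The promoter letters were searched for matches to the regulators' motifs in a short window. RefSeq windows of 300 bases (build GRCm38.p6, 250 before to 50 after a transcript start) were at hand for 28 of the 38 members; Hspa8, Hsp90aa1, Hsp90ab1, Cryab, Hsf1, Hspa9, Hspa13, Hyou1, Manf and Atf6 are named only. Both strands were searched. The ER stress response element, searched as CCAAT and CCACG with 9 bases of any letter between them, lay in the windows of 7 of the 28 members, all reticulum genes, against 0.137% of 27025 genes with a window. Its shorter form, ATTGG and CCACG with 1 base between them, lay in 2 more, Dnajb11 and Herpud1, against 0.0444% of genes. The heat shock element, searched as 3 alternating triplets GAA and TTC with 2 bases of any letter between neighbours, lay in 3, Hspd1, Hspe1 and Hsph1, against 0.662% of genes. The unfolded protein response element TGACGTGG lay in 0 of the 28 and in 0.714% of genes. Hspa1a, Hspa1b, Dnajb1, Bag3 and Hspb1 had a window and no match of the heat shock element. A match is a description of letters in this window and not a bound site. The lack of a match covers only these exact letters in this window.

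The matches of the ER stress response element have their defining letters in capitals and are given because they mark the reticulum genes whose levels are compared further on.
Canx: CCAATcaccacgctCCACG
Creld2: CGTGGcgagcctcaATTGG
Dnajc3: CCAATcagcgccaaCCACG
Pdia6: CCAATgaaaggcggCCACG
Syvn1: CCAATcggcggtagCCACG
Dnajb11: ATTGGcCCACG

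They began 145, 126, 105, 98 and 44 bases before the start for Canx, Creld2, Dnajc3, Pdia6 and Syvn1, and the match of Creld2 was on the opposite strand, so its letters appear reversed and complemented. The match of Dnajb11 lay 7 bases past the start.

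The windows of 3 reticulum genes and 1 mitochondrial gene are printed whole, 5′ to 3′ on the strand of the gene, with the motif letters in capitals. Hspa5 is the central reticulum Hsp70, Hsp90b1 the only member with 2 matches of the long element, Herpud1 a holder of the short form, and Hspd1 shares its promoter with Hspe1.
Hspa5 (chr2:34771840-34772139, plus strand): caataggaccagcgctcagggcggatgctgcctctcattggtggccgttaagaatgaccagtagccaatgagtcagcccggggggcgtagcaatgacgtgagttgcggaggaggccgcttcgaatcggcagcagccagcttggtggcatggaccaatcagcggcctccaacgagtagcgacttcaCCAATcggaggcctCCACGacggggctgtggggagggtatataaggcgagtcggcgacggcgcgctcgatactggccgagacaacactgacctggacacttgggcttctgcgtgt
Hsp90b1 (chr10:86705395-86705694, minus strand): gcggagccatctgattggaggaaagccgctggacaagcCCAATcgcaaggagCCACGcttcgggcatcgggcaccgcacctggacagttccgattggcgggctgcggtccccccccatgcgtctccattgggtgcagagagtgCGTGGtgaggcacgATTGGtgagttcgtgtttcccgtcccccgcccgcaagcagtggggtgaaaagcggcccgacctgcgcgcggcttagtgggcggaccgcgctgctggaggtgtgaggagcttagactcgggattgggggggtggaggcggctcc
Herpud1 (chr8:94386179-94386478, plus strand): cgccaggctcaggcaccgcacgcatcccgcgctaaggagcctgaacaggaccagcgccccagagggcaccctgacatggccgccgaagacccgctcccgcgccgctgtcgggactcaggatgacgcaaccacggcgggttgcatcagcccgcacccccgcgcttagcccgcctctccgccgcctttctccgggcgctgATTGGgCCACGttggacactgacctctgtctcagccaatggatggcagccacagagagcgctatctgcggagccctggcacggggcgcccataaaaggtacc
Hspd1 (chr1:55087883-55088182, minus strand): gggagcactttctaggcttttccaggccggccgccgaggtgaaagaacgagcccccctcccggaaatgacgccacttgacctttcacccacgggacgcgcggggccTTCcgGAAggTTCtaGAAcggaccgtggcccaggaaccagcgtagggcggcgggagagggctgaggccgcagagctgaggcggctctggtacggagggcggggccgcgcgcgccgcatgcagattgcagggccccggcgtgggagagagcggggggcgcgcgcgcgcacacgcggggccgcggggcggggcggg

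In Hspd1 the capitals are 2 overlapping matches of the heat shock element, 144 and 139 bases before the start, which form 1 run of alternating triplets. The window of Hspe1 (chromosome 1, 55087898 to 55088197, plus strand) reads the same DNA from the other strand, where the run begins 89 bases before the start. The single match of Hsph1, TTCtgGAAagTTC, lay past the start, 15 or 36 bases in, depending on which of its transcript starts is used.

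**Figure D1:**
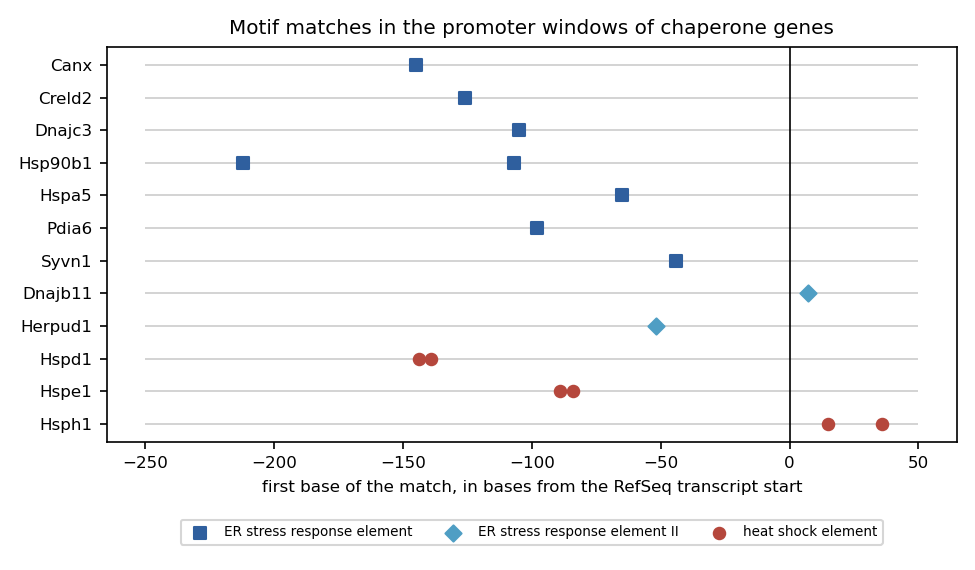
First base of each motif match (x axis, bases from the RefSeq transcript start, 0 at the start) in the promoter windows of the 12 members with a match (y axis). The long ER stress response elements lie from 212 to 44 bases before the start, and both matches of Hsp90b1 are on that side.

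The libraries held 9344779 to 15079960 counts. Jmjd6 itself stood at 52.5 to 63.7 CPM (counts relative to the TMM-scaled library total) in wild type and at 27.5 to 30.7 CPM in KO, without overlap (log2 fold change -1.03, adjusted p = 0.0381 by edgeR). Its call held without KO replicate 3 and was lost when any other single library was left out, with edgeR adjusted p of 0.0986 to 0.254 and the log2 fold change at -1.06 to -0.99. The genes of the LSK gate, Kit and Ly6a (Sca-1), were present in every library, at 416 to 508 and 86.1 to 227 CPM. Cd34 and Flt3 stood at 414 CPM or more each. Other genes of the same list were lower, among them Procr at 23.6 to 74.9 CPM and Slamf1 at 3.98 to 11.9 CPM. Wild type replicate 4 and KO replicate 3 had 0 counts of 4 Y-linked genes, against 3660 to 4814 in the other 6 libraries, and carried Xist. Wild type replicate 1 stood apart by its granule and erythroid transcripts, with 785 CPM of Elane, against 13.7 to 123 CPM in the other 7 libraries. Fewer cells of a kind and less RNA per cell cannot be told apart in bulk RNA. The labels give 1 sample per mouse, so p-values measure the spread between mice.

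Per length of annotated exon, the constitutive cytosolic chaperones led the members. In wild type Hsp90ab1, the constitutive Hsp90, stood at 688 CPM per kb, Hspa8, the constitutive Hsp70, at 457 CPM per kb, and Hsp90aa1, the more inducible Hsp90, at 301 CPM per kb. The leading reticulum genes followed: the disulphide isomerase Pdia3 at 274 CPM per kb, Hspa5 (BiP) at 198, P4hb at 183 and the lectin chaperone Canx at 176 CPM per kb. The mitochondrial Hspd1 (HSP60), Hspe1 (HSP10) and Hspa9 (mortalin) stood at 164, 116 and 98.2 CPM per kb. At the other end lay the heat-inducible and small heat shock genes, with Hspa1a at 1.12, Cryab at 0.648, Hspb1 at 0.285 and Hspa1b at 0.156 CPM per kb. The length-scaled ratio of Hsp90aa1 to Hsp90ab1 was 0.438 ± 0.0736 in wild type and 0.454 ± 0.0822 in KO (mean ± SD, n = 4). P4hb and Canx, neighbours in this order, lay closer together than the spread between mice of either, and the order of neighbours was not tested. The scaling assumes even coverage of the exons annotated in GENCODE M21.

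**Figure D2:**
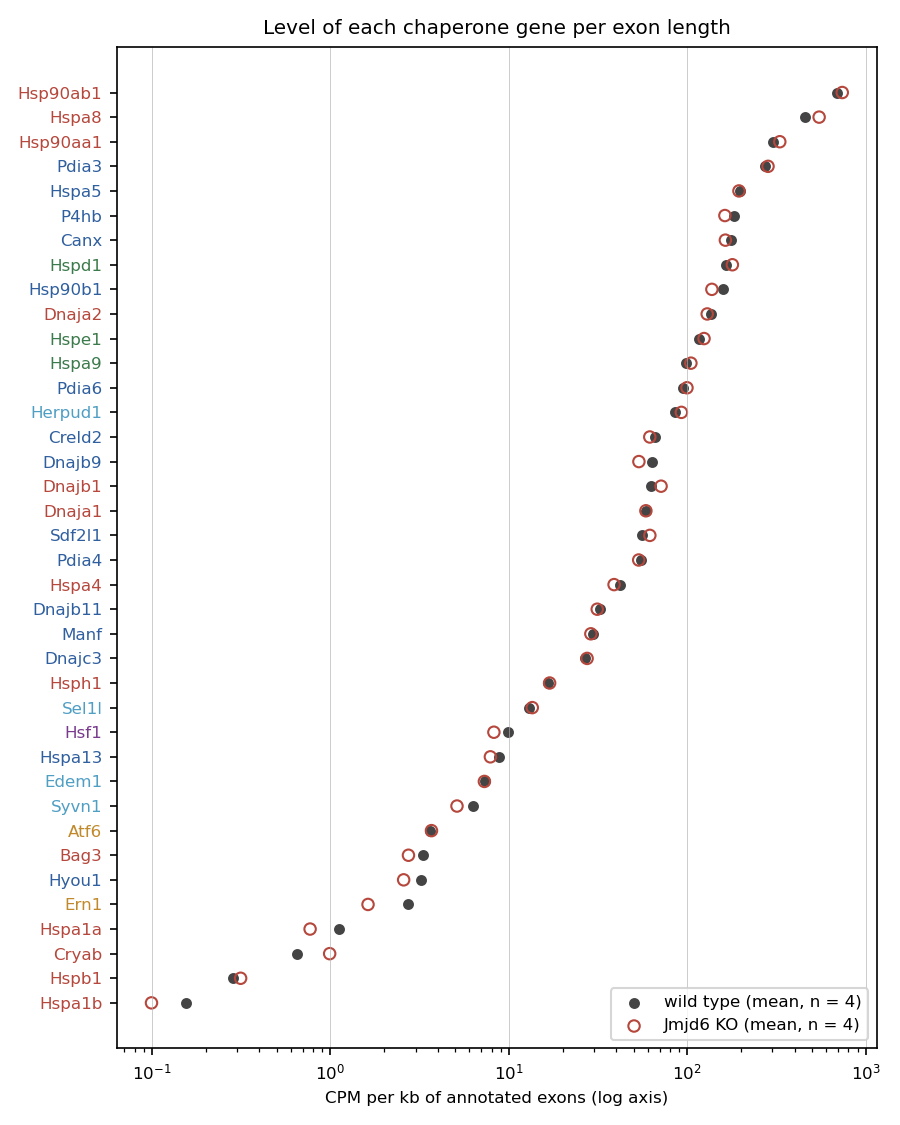
Level of each of the 38 members (y axis, coloured by list) as mean CPM per kb of annotated exons (x axis, log scale) in wild type (filled) and Jmjd6 KO (open), n = 4 mice per group. Hsp90ab1 at 688 CPM per kb in wild type tops the order, and Hspa1b at 0.156 closes it.

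No chaperone gene passed the test of Jmjd6 KO against wild type. Of the 38 members 36 passed the filter on low counts; Hspa1b and Hspb1 did not. Of the 36, 0 had an edgeR quasi-likelihood p that stayed under 0.05 after adjustment over 13439 genes, where 0.0595% of all genes did, 0.0298% in each direction. The smallest adjusted p among the members was 0.817. At an unadjusted p under 0.05 there were also 0 members, against 6.06% of all genes, and 0 passed by DESeq2 or limma voom, against 0.492% and 0.231%. The log2 fold changes had a median of -0.02 over the members and -0.0024 over all genes, with 16 members above 0 and 20 below. All members together took 13142 ± 910.4 CPM of the wild type libraries and 13659 ± 813 of the KO libraries (mean ± SD, n = 4).

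A miss of the threshold does not show equality, so the intervals matter. The 95% interval of the log2 fold change lay within a 2-fold change either way for 33 of the 36 members and within a 1.5-fold change for 25. The 3 with intervals past 2-fold were Hspa1a, Cryab and Ern1. Expression did not overlap between the genotypes for 2 members, Hspa8 upward and Bag3 downward, where 2.08% of all genes lay apart upward and 2.11% downward, 4.19% in all; 1 of 36 in each direction is close to that background.

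**Figure D3:**
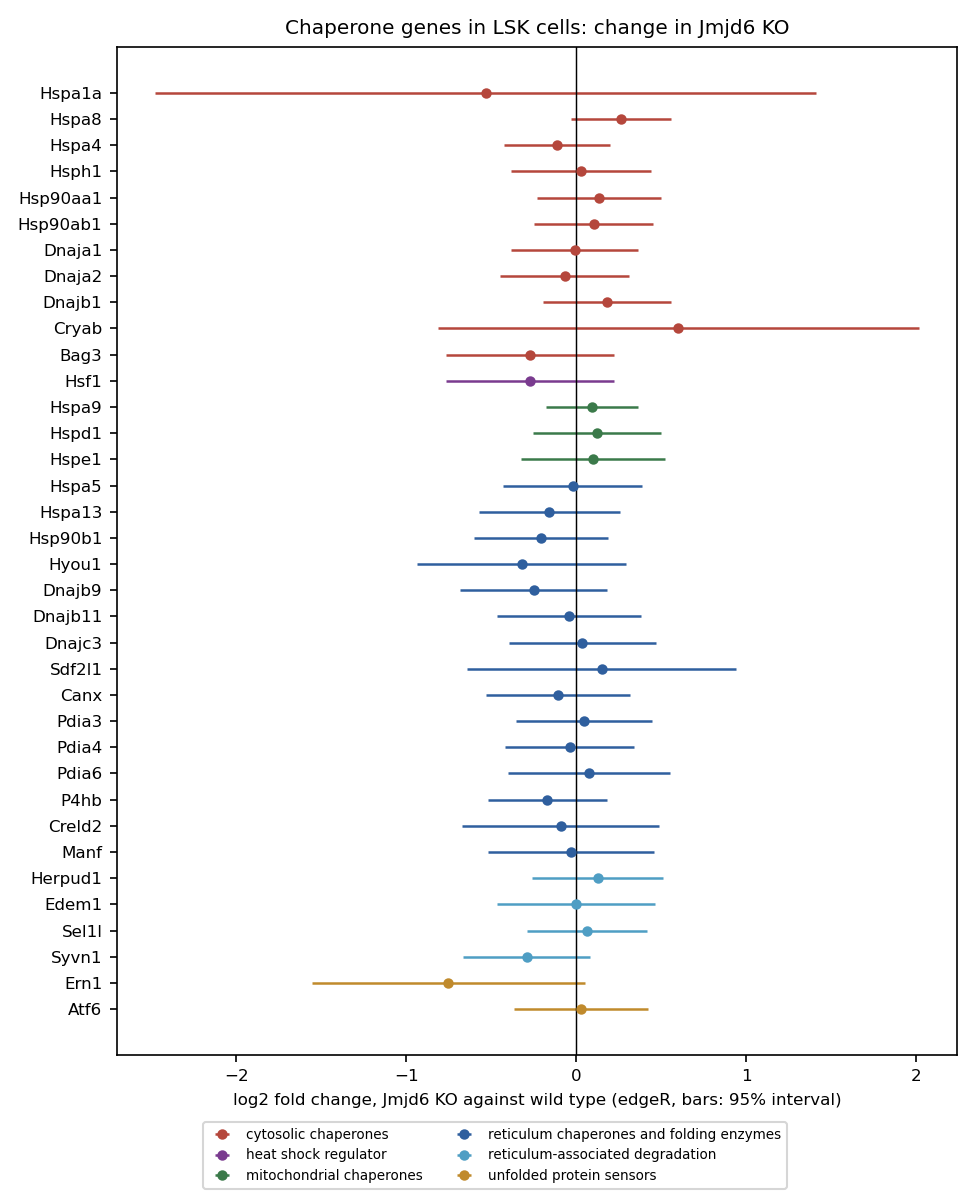
Log2 fold change of Jmjd6 KO against wild type (x axis) with its 95% interval by edgeR (bars) for the 36 members tested (y axis), coloured by list, n = 4 mice per group. Every interval includes 0, and the widest are those of Hspa1a and Cryab.

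Among the cytosolic members the constitutive Hsp70, a gene of chromosome 9 (40800984 to 40810087, build GRCm38), was the one whose KO libraries all lay higher. Hspa8 stood at 1710.0, 2056, 2059 and 2029 CPM in wild type replicates 1 to 4 and at 2069, 2492, 2457 and 2412 CPM in KO replicates 1 to 4. Every KO library lay above every wild type library, by a narrow margin between KO replicate 1 and wild type replicate 3. The log2 fold change was 0.26 (SE 0.14, 95% interval from -0.03 to 0.56, adjusted p = 0.831 by edgeR).

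Bag3, a co-chaperone of Hsp70 in selective autophagy and an HSF1 target (chromosome 7, 128523616 to 128546981), stood at 9.39, 9.58, 7.53 and 7.38 CPM in wild type and at 7.21, 6.99, 6.94 and 6.89 CPM in KO. The KO libraries were nearly equal and lay just under the 2 lower wild type libraries. Its log2 fold change was -0.27 (SE 0.23, adjusted p = 0.85 by edgeR). The Hsp40 gene Dnajb1, another HSF1 target, held 161, 250.4, 213 and 181 CPM in wild type and 226, 205, 203 and 279.9 CPM in KO. The groups overlapped widely, and the log2 fold change of 0.18 had an adjusted p of 0.863 by edgeR.

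Both Hsp90 genes overlapped between genotypes. Hsp90aa1 stood at 1536, 1019, 1131 and 1041 CPM in wild type and at 1137, 1329.9, 1251 and 1469 CPM in KO, a log2 fold change of 0.13 (adjusted p = 0.887 by edgeR). Hsp90ab1 stood at 2223, 2079, 2258 and 1690.2 CPM in wild type and at 2431, 2347, 1724 and 2361 CPM in KO, a log2 fold change of 0.10 (adjusted p = 0.909 by edgeR). Its lowest values were those of wild type replicate 4 and KO replicate 3, the libraries without Y-linked counts. Among the cytosolic members only Hspa1a shared that feature, at 1.01 and 0 CPM (16 and 0 counts). This was just under the 1.03 CPM of KO replicate 2 (10 counts).

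The remaining cytosolic chaperones also overlapped between genotypes. The nucleotide exchange factors Hspa4 and Hsph1 (HSP110) differed by -0.12 and 0.03 on the log2 scale, and the J-domain proteins Dnaja1 and Dnaja2 by -0.0098 and -0.07. Hspa4 ranged from 187 to 263 CPM over the 8 libraries and Hsph1 from 91.1 to 149 CPM. The median log2 fold change of the 11 cytosolic members tested was 0.03. Their summed level, all 13 included, was 6688 ± 363 CPM for wild type against 7338 ± 600.2 for KO (mean ± SD, n = 4).

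The strictly heat-inducible Hsp70 genes were close to silent in these sorted cells. Hspa1a held 17, 87, 46 and 16 counts in wild type and 26, 10, 0 and 75 counts in KO. Hspa1b held 12, 2, 1 and 3 counts in wild type and 3, 6, 0 and 3 counts in KO. The 2 genes are near-identical neighbours on chromosome 17, so how reads were shared out to each is uncertain. With their counts summed the log2 fold change was -0.55, against -0.53 for Hspa1a alone (95% interval from -2.48 to 1.41). The value for Hspa1a ran from -1.60 without KO replicate 4 to -0.11 without wild type replicate 2, and was -1.01 both with the replicate block and by limma voom. KO replicate 3 had 0 counts of Hspa1a, Hspa1b and Hspb1, which allows up to 0.229 CPM of each by a floor of 3 counts for counting error only. Hspb1 (HSP27) had at most 16 counts in any library, in wild type replicate 4. Cryab, the small heat shock protein alpha-B crystallin, reached 47 counts in KO replicate 3 and 5 to 20 counts elsewhere. Cryab gave a log2 fold change of 0.60, which was -0.34 without KO replicate 3.

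Hsf1, the transcription factor of the cytosolic response, stood at 57.2, 68.9, 55.1 and 101 CPM in wild type and at 57.2, 64.9, 69.6 and 42.4 CPM in KO. The highest and the lowest library belonged to different genotypes, and the other 6 lay together. The log2 fold change was -0.27 (SE 0.23, adjusted p = 0.85 by edgeR), and -0.05 without wild type replicate 4.

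The 3 mitochondrial chaperones lay slightly above 0 and within the spread between mice, with a median log2 fold change of 0.10 that was -0.04 once the trend on exon length and level over all genes was removed. Hspa9, the matrix Hsp70 that drives protein import, was the steadiest member of all, at 465, 396, 419 and 413 CPM in wild type and 452, 461, 455 and 438 CPM in KO. Its log2 fold change of 0.09 had a 95% interval of -0.18 to 0.36 (adjusted p = 0.894 by edgeR).

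Hspd1, the matrix chaperonin, stood at 510.3, 378, 403 and 447 CPM in wild type and at 426, 492, 599 and 374 CPM in KO. The groups overlapped, with the highest and the lowest library both in KO (log2 fold change 0.12, adjusted p = 0.904 by edgeR). Its lid Hspe1 stood at 213, 136, 147 and 187 CPM in wild type and at 136, 176, 190.4 and 229.6 CPM in KO (log2 fold change 0.10, adjusted p = 0.932 by edgeR). Both genes start from the shared promoter printed above, and 112 exonic bases overlap on opposite strands; whether counting used the strand is not given, so reads there may not have been told apart. The same holds for Dnaja1 with Smu1 (608 bases), Hspa1a with Gm20481 (564), Hsp90b1 with 1810014B01Rik (415) and Cryab with Hspb2 (252). Smaller overlaps include Dnaja1 with Gm6297 (249), Manf with 4930524O07Rik (166) and Dcaf1 (146), and Syvn1 with Mrpl49 (91). In wild type Hspd1 and Hspe1 had the same order of libraries, whereas in KO replicate 4 Hspe1 was at its highest and Hspd1 at its lowest.

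In the endoplasmic reticulum the 21 members, all tested, had a median log2 fold change of -0.04, with 7 above 0 and 14 below. Hspa5 (BiP), the Hsp70 that also holds the stress sensors inactive (chromosome 2, 34771970 to 34777547), stood at 773, 731, 719 and 1121 CPM in wild type and at 680.2, 831, 1023 and 760.1 CPM in KO. Each genotype had 1 library well above its other 3. The log2 fold change was -0.02 (95% interval from -0.43 to 0.39, adjusted p = 0.985 by edgeR).

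Hsp90b1 (GRP94), the reticulum Hsp90, stood at 807, 510.2, 529.8 and 711 CPM in wild type and at 449, 596, 579 and 590.2 CPM in KO. Wild type replicates 1 and 4 were high and KO replicate 1 was low, with overlap between groups. The log2 fold change was -0.21 (SE 0.18, adjusted p = 0.85 by edgeR), and -0.06 without wild type replicate 1. The other Hsp70-type members were lower in level, the exchange factor Hyou1 at 10.4 to 26.4 CPM with a log2 fold change of -0.32 and Hspa13 at 41.6 to 71.3 CPM with -0.16.

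Sdf2l1, which partners J-domain proteins and BiP and is strongly induced by reticulum stress, varied most among the reticulum chaperones. It stood at 72.5, 40.2, 33.4 and 100.3 CPM in wild type and at 48.0, 51.7, 114 and 59.8 CPM in KO. The highest library was 3.40 times the lowest, each genotype held both high and low libraries, and the log2 fold change of 0.15 had a 95% interval from -0.64 to 0.94 (adjusted p = 0.945 by edgeR). Creld2, a stress-induced folding factor, stood at 84.1, 79.6, 66.2 and 129 CPM in wild type and at 56.3, 76.8, 129 and 74.7 CPM in KO, a log2 fold change of -0.09 (adjusted p = 0.955 by edgeR). The high libraries were again wild type replicate 4 and KO replicate 3.

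The J-domain partners of BiP gave log2 fold changes of -0.25 for Dnajb9 (ERdj4), -0.04 for Dnajb11 (ERdj3) and 0.04 for Dnajc3 (p58IPK), with ranges of 120.3 to 232, 81.9 to 134 and 111 to 189 CPM over the 8 libraries. The disulphide isomerases gave 0.05 for Pdia3, -0.04 for Pdia4, 0.08 for Pdia6 and -0.17 for P4hb, which is also a subunit of prolyl 4-hydroxylase. Canx (calnexin), the membrane lectin chaperone of glycoproteins, gave -0.11, and Manf, a secreted stress-induced factor, gave -0.03. Values of all these members overlapped between genotypes. The summed level of the 21 genes was 5355 ± 1008 CPM for wild type against 5156 ± 725 for KO (mean ± SD, n = 4).

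The 4 members of reticulum-associated degradation also passed no test. Syvn1 (HRD1), the ubiquitin ligase of this pathway, stood at 28.7, 32.8, 29.1 and 31.1 CPM in wild type and at 29.4, 24.3, 21.3 and 24.6 CPM in KO. Only KO replicate 1 reached the wild type range. The log2 fold change was -0.29 (SE 0.17, 95% interval from -0.66 to 0.08, adjusted p = 0.832 by edgeR). Its cofactor Sel1l gave 0.06, the mannosidase-like Edem1 -0.0023 and the ubiquitin-domain protein Herpud1 0.13.

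The sensor Ern1 (IRE1), the kinase and nuclease that splices Xbp1 mRNA (chromosome 11, 106394650 to 106487852), had the largest negative difference of the members. It stood at 17.0, 17.2, 13.8 and 41.1 CPM in wild type and at 19.7, 13.4, 8.31 and 11.7 CPM in KO. Wild type replicate 4 held more than the other 7 libraries, and the rest of the groups overlapped. The difference of -0.75 on the log2 scale (SE 0.37, edgeR adjusted p = 0.817) was -0.27 without that library. Atf6, the sensor that is cut in the Golgi to release a transcription factor, ranged from 24.9 to 38.4 CPM with a log2 fold change of 0.03. Gene counts carry no information on the splicing of Xbp1, which was not analysed here.

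**Figure D4:**
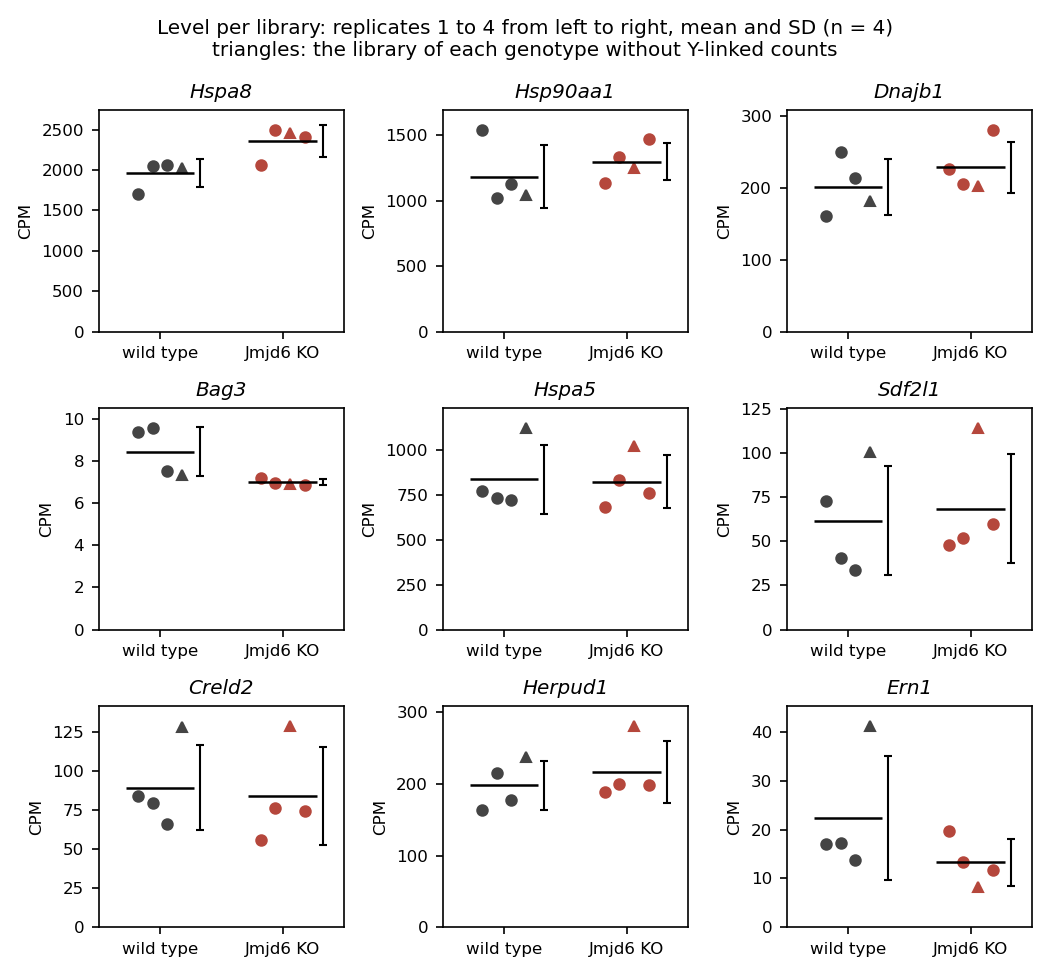
CPM (y axis, from 0) of 9 members in each library, wild type against Jmjd6 KO, with the mean and SD of each group (n = 4); triangles mark the library of each genotype without Y-linked counts. In Hspa5, Sdf2l1, Creld2 and Herpud1 the triangles top both groups. In Hspa8 the KO libraries lie above the wild type libraries by a narrow margin, 2069 against 2059 CPM (edgeR adjusted p = 0.831).

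The high values of the reticulum genes recurred in the same 2 libraries, 1 of each genotype. In 11 of the 21 reticulum members both wild type replicate 4 and KO replicate 3 lay above all of the other 6 libraries, where 7.68% of all genes tested did so; this feature was chosen after the values were seen and carries no test. The 11 were Hspa5, Dnajb9, Dnajb11, Dnajc3, Sdf2l1, Pdia4, Pdia6, Creld2, Manf, Herpud1 and Sel1l. Of the 11 cytosolic members tested 0 did so and 2, Hsp90ab1 and Hspa1a, were lowest in those libraries, where 10.7% of all genes were, and of the 3 mitochondrial members 0 did so. Hsf1 was the remaining gene with both libraries on top. In the wider lists the compartments lay closer together. Both libraries were on top in 5 of 30 other cytosolic chaperones and 1 of 14 subunits of the cytosolic chaperonin and prefoldin. The same held for 5 of 28 other reticulum folding genes and 3 of 19 other genes of reticulum-associated degradation. It also held for 3 of 15 other mitochondrial genes and 2 of 15 genes of unfolded protein signalling. The margin was 1023 against 831 CPM for Hspa5, 129 against 84.1 for Creld2 and 100.3 against 72.5 CPM for Sdf2l1, each the lower of the 2 libraries against the highest of the other 6.

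Per library, the median deviation of the reticulum members from their own mean log2 CPM was 0.39 in wild type replicate 4 and 0.28 in KO replicate 3, and between -0.20 and 0.07 in the other 6. That of the cytosolic members was -0.09 and -0.06 in those libraries and highest, at 0.26, in KO replicate 4. Among the 9 reticulum genes with an ER stress response element of either form, 6 had both libraries on top, and among the 8 with a window but no such element 4 did. Hspa13, Hyou1, P4hb, Syvn1 and Ern1 went the other way in KO replicate 3, which was their lowest library.

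Values of other cell types moved in part with these libraries. Plasma and B cell markers, 15 of 15 in the table and 10 tested, summed to 404 to 655 CPM in wild type and 451 to 1042 CPM in KO, the top value in KO replicate 3. In that library Jchain, a defining plasma cell gene, stood at 85.5 CPM, the light chain gene Iglc1 at 60.3 CPM and Prdm1, the plasma cell regulator, at 5.80 CPM, whereas in wild type replicate 4 Jchain was at 25.2 CPM and Iglc1 at 0.189 CPM. That level of Jchain lay within the range of the other libraries. Prdm1, with 151 counts over all 8 libraries, stood at 2.21 CPM in wild type replicate 4. In the other 6 libraries Prdm1 was at most 1.08 CPM. Cd79b was also highest in KO replicate 3, at 107 CPM, but other markers of this list peaked elsewhere. Igkc and Ighm were highest in KO replicate 2, at 217 and 608 CPM, against 172 and 552 CPM in KO replicate 3. Mzb1 was highest in KO replicate 4, at 8.52 CPM against 4.80 in KO replicate 3. Irf4 was highest in wild type replicate 2, at 2.46 CPM against 0.839 in KO replicate 3. Tnfrsf17 was at or under 0.532 CPM and Igha at or under 0.206 CPM in all 8 libraries. The part of these cells in the reticulum values was not tested. Macrophage and monocyte markers, 11 of 11 tested, summed to 529 to 757 CPM in wild type and 551 to 850 CPM in KO. Among them C1qa, C1qb, C1qc, Vcam1 and Ccr2 had wild type replicate 4 and KO replicate 3 above the other 6 libraries. The lower of the 2 stood at 38.5 against 34.2 CPM for C1qc and at 41.9 against 41.1 CPM for C1qb. Adgre1, Csf1r, Vsig4, Clec10a, Ly6c2 and Lyz2 did not, and Csf1r was lowest in KO replicate 3. Their part was not tested either. The summed markers of T and natural killer cells, 10 of 10 in the table and 5 tested, lay apart by genotype. They stood at 139 to 246 CPM in wild type and 288 to 402 in KO, lowest in wild type replicate 4 and highest in KO replicate 3. Most of each sum was Nkg7 alone, at 125 to 232 CPM in wild type and 259 to 374 in KO. Cd3e, Cd8a and Ncr1 had only 1, 11 and 12 counts over all 8 libraries. Among the tested genes Trbc2 went the other way, with a log2 fold change of -0.30. Megakaryocyte and platelet markers, 7 of 7 tested, lay apart the other way, with 409 to 541 CPM in wild type and 339 to 405 in KO. Neither was tested for its part in the chaperone values. Immediate early genes, which respond to cell handling, summed to 1965 to 3667 CPM in wild type libraries and 2231 to 4019 in KO libraries, with 2860 CPM in wild type replicate 4 and 3199 CPM in KO replicate 3, and their part was not tested either. KO replicate 3 held the highest value of 24.5% of all genes and the lowest value of 27.7%, and wild type replicate 4 of 7.99% and 8.23%.

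**Figure D5:**
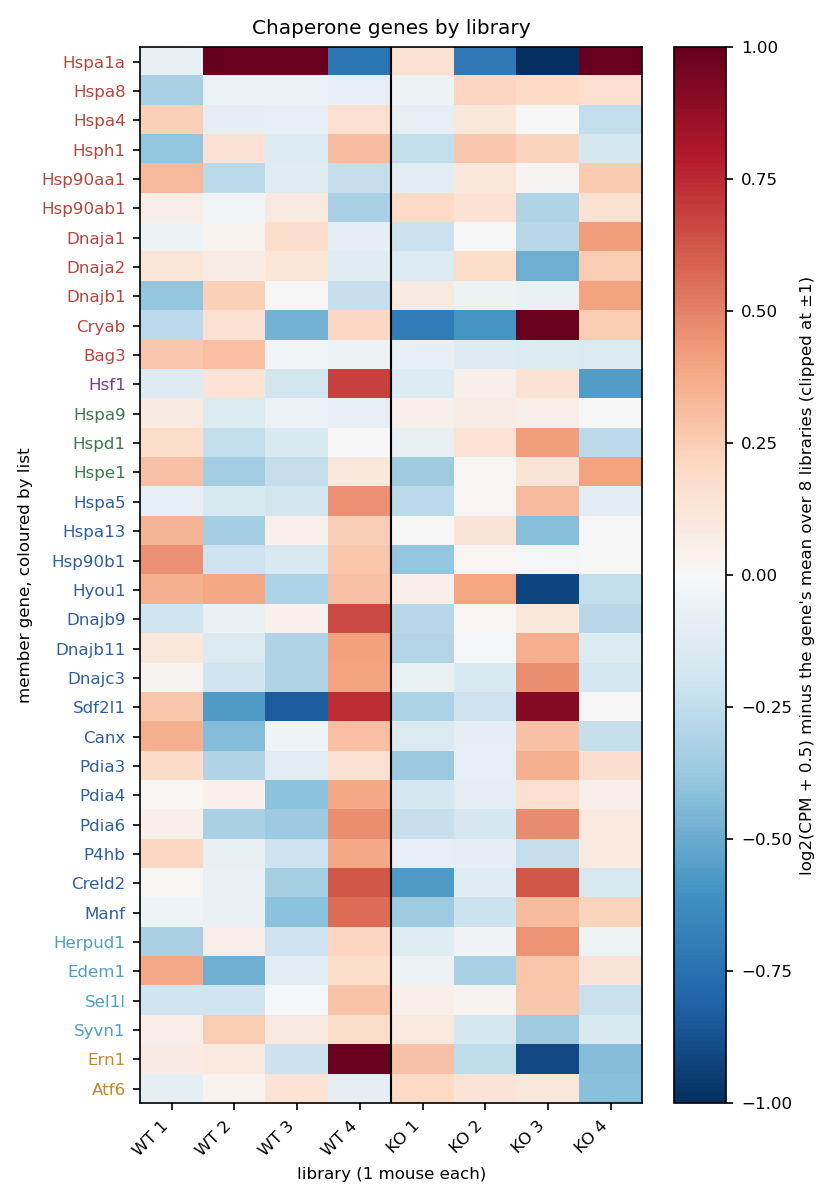
Deviation of log2(CPM + 0.5) from the mean of each gene over the 8 libraries (colour, clipped at 1 either way) for the 36 members tested (rows, coloured by list) in each library (columns, 1 mouse each). Sdf2l1 and Creld2 have wild type replicate 4 and KO replicate 3 above the other 6 libraries. This is the case in 11 of the 21 reticulum members. Of genes not drawn, both libraries top 5 of 28 other reticulum folding genes and 5 of 30 other cytosolic chaperones. They also top 1 of 14 chaperonin and prefoldin subunits.

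Other genes of the same pathways also gave 0 calls by each of the 3 tools, edgeR, DESeq2 and limma voom. Up to 4 genes of each wider list are named here for their small p. Such a choice favours genes whose groups lie apart, as those of 4.19% of all genes did. Of 30 other cytosolic chaperones and co-chaperones, all tested, 20 lay above 0 with a median log2 fold change of 0.09. An unadjusted edgeR p under 0.05 was reached by 3 above and 1 below, and by 6.06% of all genes. Dnaja4, a cytosolic J-domain protein, stood at 8.39, 10.8, 13.4 and 9.08 CPM in wild type and at 4.58, 5.35, 6.18 and 5.89 CPM in KO. Every KO library lay below every wild type library, and the log2 fold change of -0.92 (SE 0.25) had an adjusted p of 0.501 by edgeR. In the opposite direction lay Hspa2, a testis-enriched Hsp70, at 0.76, the Hsp90 co-chaperone Fkbp5 at 0.46 and the polyubiquitin gene Ubb at 0.40, with adjusted p of 0.746, 0.774 and 0.772 by edgeR. Of these 3, Ubb had every KO library above every wild type library.

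All 14 subunits of the chaperonin TRiC and of prefoldin, which together fold actin and tubulin, lay above 0, where 49.6% of all genes did. Their median was 0.22, and 2 of the 14 had an unadjusted edgeR p under 0.05, against 6.06% of all genes. Over 13187 genes with a known length the log2 fold change fell with exon length (Spearman's rho -0.277, across genes, which are not independent replicates), and these 14 genes were short, with a median of 2662 exonic bases against 4233. With the trend on length and level removed, 9 of the 14 lay above 0 and the median was 0.13. Cct5 stood at 572, 566, 537 and 591 CPM in wild type and at 627, 663, 806 and 794 CPM in KO, above every wild type library, and its log2 fold change of 0.35 had an adjusted p of 0.772 by edgeR. Pfdn1, Pfdn4 and Tcp1 gave 0.56, 0.43 and 0.24. KO replicates 3 and 4 were the highest libraries of Cct5, Pfdn1 and Pfdn4. Of 15 other mitochondrial chaperones and proteases 11 lay above 0, with a median of 0.12; Grpel1, the exchange factor of Hspa9, gave 0.42, Dnajc15 0.28, Hscb 0.27 and the protease Htra2 -0.18.

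Other reticulum folding genes, 28 of 28 tested, had a median of 0.02, and 0 had an unadjusted p under 0.05. Calr (calreticulin), the soluble partner of calnexin, had 540.2 ± 92.9 CPM in wild type against 560.2 ± 49.6 in KO (mean ± SD, n = 4; log2 fold change 0.05). Creld1, Sec63, Txndc11 and Tmx3 gave -0.44, -0.39, -0.38 and -0.25. Among 19 other genes of reticulum-associated degradation the median was -0.0014. An unadjusted edgeR p under 0.05 was reached by 2 below 0, and by 6.06% of all genes. Of these 2, Herpud2 had 56.3, 64.4, 64.5 and 52.5 CPM in wild type and 42.9, 48.0, 25.3 and 49.7 CPM in KO. Every KO library lay below every wild type library, and the log2 fold change was -0.52, at an adjusted p of 0.774 by edgeR. The ubiquitin-conjugating enzymes Ube2j1 and Ube2j2 gave -0.17 and 0.22, the latter with every KO library above every wild type library.

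Of 16 genes of unfolded protein signalling 15 were tested, 6 above 0 and 9 below, with a median of -0.06. Xbp1, the transcription factor downstream of Ern1, stood at 148, 208, 168 and 323 CPM in wild type and at 150.4, 164, 189 and 194 CPM in KO. Wild type replicate 4 was the high library, as for Ern1, and the log2 fold change was -0.28 (adjusted p = 0.848 by edgeR). Eif2ak3 (PERK) gave -0.17, its downstream factor Atf4 0.0046 and Ddit3 (CHOP), a proapoptotic target of Atf4, 0.19. Trib3, Atf3 and Eif2s1 gave -0.54, 0.76 and 0.29, each with overlap between the groups.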

How the data were processed

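PolyA RNA of sorted LSK cells was measured in 8 libraries, 4 wild type and 4 Jmjd6 KO, grouped by the labels. The deposited values were raw counts per gene from the authors, whole numbers with no scaling. Reads were aligned with HISAT2 to mm10, per the submitters' processing notes. The counting tool, annotation and strand setting were not given in the sources used here. Totals ran from 9344779 to 15079960 counts, and the biological coefficient of variation was 27.8%.

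From the counts, edgeR 4.0.16 (R 4.3.3) kept 13439 genes by filterByExpr (minimum count 10, minimum total 15), applied TMM scaling and ran the quasi-likelihood test with Benjamini-Hochberg adjustment over all of them, at a threshold of 0.05. Printed CPM are TMM-scaled. limma 3.58.1 (voom with sample weights) and DESeq2 1.42.0 were alternatives, with other scalings, filters, a replicate block, libraries left out, Hspa1a and Hspa1b summed, and a length and level trend removed. The main edgeR fit was tested on simulated data. Positions and exon lengths are from GENCODE M21 (GRCm38), and promoter windows from RefSeq (GRCm38.p6).

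The members and all lists were chosen with earlier results of these data known. Besides the members and Jmjd6, up to 4 genes with the smallest p in each wider list are named, plus Xbp1, Ddit3, Atf4, Calr and Eif2ak3; 1 gene that this rule names is not reported here.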

Additional observations from a re-analysis of the deposited data

Results flagged for a closer look

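A library stood apart from the other 3 of its genotype, by the gap to its neighbour, in 13 of 134 gene and genotype groups examined, where chance gives about 1 in 20. In wild type replicate 4 these were Hspa5 at 1121 CPM against 773 CPM in the next library, Ern1 at 41.1 against 17.2 CPM, Txndc11 at 77.7 against 36.7 CPM and Hspb1 at 1.01 against 0.1004 CPM. In KO replicate 3 they were Herpud1 at 279.8 against 199 CPM, Dnajc3 at 189 against 131 CPM and, on the low side, Hsp90ab1 at 1724 against 2347 CPM. In wild type replicate 1, Hspa8 was low at 1710.0 against 2029 CPM, and Hspa1b high at 1.33 against 0.189 CPM. The others were low values: Hsp90b1 at 449 against 579 CPM in KO replicate 1, Atf6 at 24.9 against 36.1 CPM in KO replicate 4, Hyou1 at 16.0 against 24.6 CPM in wild type replicate 3 and Ddit3 at 15.6 against 28.1 CPM in wild type replicate 2.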

How the results depend on the processing

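The count of members called was 0 in every setting tried, an adjusted p under 0.1 included. The count of all genes past the threshold was 8, and 3 with the replicate block, 4 without wild type replicate 1 and KO replicate 3 together, 4 in the 6 libraries with Y-linked counts, 66 by DESeq2, 31 by limma voom, 15 with a term for the libraries without Y-linked counts, and 2 to 8 with 1 library left out. Jmjd6 kept its direction: -1.02 with the replicate block, -1.11 without wild type replicate 1 and KO replicate 3, -1.02 in the libraries with Y-linked counts and -1.06 to -0.99 with 1 library left out, no longer past the threshold in any of these except 1 left-out library. Same-numbered replicates did not deviate together (correlations of 0.03, -0.01, -0.18 and -0.19), so the numbers were not read as pairs, and the replicate block left 0 members called. The medians of the 3 compartments moved by less than the spread between replicates: with 1 library left out, -0.02 to 0.08 (cytosolic), 0.06 to 0.23 (mitochondrial) and -0.14 to 0.10 (reticulum), and with the length and level trend removed -0.03, -0.04 and -0.10, which turns the sign of the first pair; the same removal from the wider lists was chosen after seeing the data. No member's log2 fold change that turned sign was past the threshold before or after, and the causes were not tested. With library size as the only scaling, which shifted the median of all genes by -0.05, the sign turned for Hsph1 (-0.032), Dnajc3 (-0.017), Pdia3 (-0.0016), Atf6 (-0.020) and Atf4 (-0.046). Without wild type replicate 1 and KO replicate 3 it turned for Hsph1 (-0.15), Dnaja1 (0.052), Dnaja2 (0.086), Cryab (-0.42), Hspa13 (0.040), Dnajc3 (-0.13), Sdf2l1 (-0.13), Pdia3 (-0.0007), Pdia6 (-0.070), Herpud1 (-0.10), Edem1 (0.041), Sel1l (-0.077) and Atf6 (-0.034). In the 6 libraries with Y-linked counts it turned for Dnaja1 (0.037), Dnaja2 (0.0074), Hspa5 (0.030), Hspa13 (0.003), Pdia3 (-0.016), Pdia4 (0.039), Manf (0.070) and Atf6 (-0.035). By limma voom it turned for Cryab (-0.48), Hyou1 (0.10), Dnajc3 (-0.0096), Pdia3 (-0.12), Pdia4 (0.0079), Pdia6 (-0.016) and Hscb (-0.043). With the replicate block it turned for Edem1 (0.015) and Atf4 (-0.056). With no filter it turned for Atf4 (-0.0063). With a term for the libraries without Y-linked counts, chosen after seeing the data, it turned for Atf4 (-0.054). With 1 library left out it turned for Hsph1 (-0.069 to 0.15), Dnaja1 (-0.18 to 0.077), Dnaja2 (-0.17 to 0.063), Cryab (-0.34 to 0.93), Hspd1 (-0.012 to 0.23), Hspe1 (-0.030 to 0.24), Hspa5 (-0.14 to 0.15), Dnajb11 (-0.19 to 0.10), Dnajc3 (-0.14 to 0.20), Sdf2l1 (-0.21 to 0.49), Canx (-0.24 to 0.014), Pdia3 (-0.071 to 0.18), Pdia4 (-0.16 to 0.10), Pdia6 (-0.087 to 0.27), Creld2 (-0.37 to 0.14), Manf (-0.16 to 0.19), Herpud1 (-0.023 to 0.23), Edem1 (-0.14 to 0.15), Sel1l (-0.021 to 0.18), Atf6 (-0.014 to 0.15), Calr (-0.0041 to 0.19), Txndc11 (-0.52 to 0.024) and Atf4 (-0.13 to 0.22). Depth limits Hspa1a, Hspa1b, Hspb1 and Cryab, each with libraries under 10 counts.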
